A study of Mus musculus with 9 samples.

Results

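The comparison described here sets C2C12 cells kept in 25 mmol/L glucose with 200 nmol/L liraglutide (HL group, 3 libraries) against control cells (NC group, 3 libraries). Its members were taken by their labels, as 6 of the 9 RNA libraries of the series. The other 3 libraries, of cells in 25 mmol/L glucose without the drug (H group), are given only for context. All cells were treated for 48 h, and mRNA was sequenced from cells in culture. C2C12 is a line of myoblasts established from the skeletal muscle of an adult mouse, and it can leave the cell cycle and fuse into myotubes. Liraglutide carries a fatty acid chain and acts on the receptor of the gut hormone GLP-1, glucagon-like peptide 1. HL and NC differ in the glucose and in the drug together, no library of liraglutide without high glucose was analysed here, and the glucose concentration of the NC medium is not given in the sources used here. The shares of glucose and drug in a difference between HL and NC therefore cannot be told apart. The study's methods speak of biological repeats for its experiments in general, but neither they nor the labels say which culture each library came from. The p-values measure the spread between these samples.

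Muscle is built from myoblasts in an ordered program. Dividing myoblasts are held back from differentiation by ID proteins, which bind the partners of the myogenic factors MYF5, MYOD and myogenin. Cells that stop copying their DNA switch on myogenin and MEF2 factors and then the proteins of the sarcomere, the contractile unit of the muscle fibre. Cells that leave the cycle also change the way histone genes are read, since most histone mRNA is made during DNA replication and lacks a poly(A) tail.

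Levels are FPKM, fragment numbers corrected for gene length and library size, so that they can be compared between genes, and means are given ± SD over the 3 libraries of a group. A gene was tested when it reached 1 FPKM in at least 3 of the 6 libraries, which 12896 of 54307 genes did. Fold changes are differences of log2(FPKM + 0.1), given as HL minus NC with their standard error (SE), and understate the change of genes near 0. The test was limma over all tested genes, and a gene is said to rise or fall when its adjusted p was under 0.05 and its absolute log2 fold change over 1. Depth was estimated by taking each value of genes at 0 in several libraries as 1 read. The most common estimate was about 20.9 M reads in each NC library and 17.2 to 21.5 M in HL. For a transcript of 2 kb, 1 FPKM then stands for about 30.1 to 37.6 fragments. Replicates lay close together, with a median SD of the log2 values of 0.069 in NC and 0.083 in HL, against 0.164 in H. Mitochondrially encoded transcripts took 6.48% to 7.28% of the FPKM total in NC and 9.19% to 11.45% in HL. This share moves with the comparison. When the libraries were rescaled without these transcripts the median over the tested genes, on the log2 scale, went from -0.05 to 0.09.

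The myoblast label was checked first. Of 16 myoblast markers, 14 were tested and 3 rose, none fell, and their summed level was 715.4 to 724.9 FPKM in NC and 976.8 to 1005.0 in HL. At an adjusted p alone 10 of the 14 were above NC and 3 below. Myod1 was one of the lower markers, at 18.2 ± 0.264 FPKM in NC and 13.1 ± 0.680 in HL. Des, the muscle intermediate filament desmin, was at 253 ± 9.37 FPKM in NC and 369 ± 4.89 in HL. The stem cell factors Pax7 and Pax3 stayed under 1 FPKM in all 6 libraries. Of 25 macrophage markers, 21 were below the filter, and the defining genes Adgre1, Spi1, Tyrobp and C1qa were listed at 0 in each of the 6 libraries. Of the 4 tested, 1 rose, the summed level of the list was 34.0 to 35.5 FPKM in NC and 52.0 to 53.9 in HL, and its part in the results was not tested. Cd68, the lysosomal glycoprotein that rose, went from 4.78 ± 0.704 to 19 ± 0.631 FPKM.

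Over all tested genes, 762 were higher in HL (5.91%) and 323 were lower (2.50%), together 8.41%. At an adjusted p alone the shares were 61.8% in either direction, 26.9% higher and 35.0% lower. For 68.0% of the tested genes the 2 groups did not overlap, so that a lack of overlap between these groups is common here. Of the 11663 genes at 1 FPKM or more in all 6 libraries, 406 rose (3.48%) and 208 fell (1.78%). Of the 336 genes that reached 1 FPKM in no NC library, 257 rose, and such genes passed the filter through their HL values. Rises made up 70.2% of the calls, 77.6% after rescaling to TPM and 81.9% after rescaling without the mitochondrial transcripts.

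**Figure D1:**
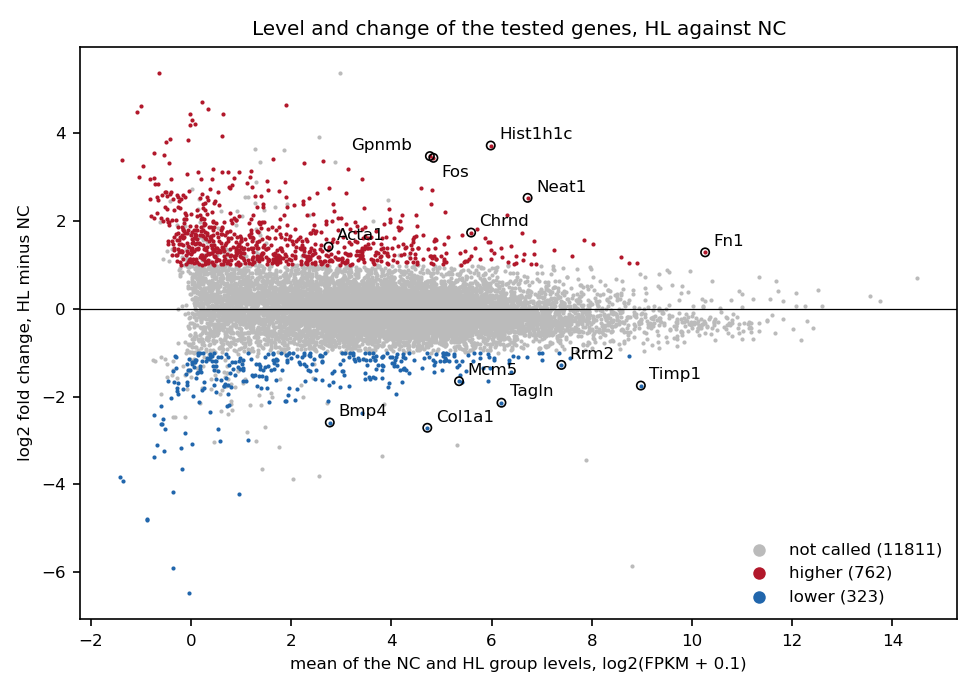
Log2 fold change, HL minus NC (vertical axis), against the mean level of both groups (horizontal axis, log2(FPKM + 0.1)), with 1 point per tested gene. Red points are the 762 genes called higher, blue points the 323 called lower and grey points the genes not called, and circles mark genes described in the text, such as Hist1h1c at 3.71 and Col1a1 at -2.71.

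Large rises were seen in a linker histone, a lysosomal membrane protein and an immediate early gene. Hist1h1c, which encodes linker histone H1.2, was at 17.1, 18.4 and 16.8 FPKM in the NC libraries and at 236, 217 and 234 in HL, which is HL minus NC of 3.71 on the log2 scale (SE 0.05, adjusted p = 1.02e-07). Gpnmb, a glycoprotein of lysosomes and melanosomes, was at 8.57, 7.78 and 7.90 FPKM in NC and at 88.2, 97.6 and 86.6 in HL (HL minus NC 3.47, adjusted p = 2.14e-07). In both genes each HL library exceeded every NC library by far. Fos, an AP-1 subunit, was 10.9-fold higher. Rhbdl2, an intramembrane rhomboid protease, rose from 1.41 ± 0.0646 to 14.9 ± 0.658 FPKM, Efhd1, a calcium-binding protein of mitochondria, from 3.75 ± 0.0875 to 29.8 ± 0.301, and Enpp2, the enzyme autotaxin that makes lysophosphatidic acid, from 0.701 ± 0.0564 to 6.33 ± 0.570. Depp1, which is controlled by FOXO factors, rose from 0.311 ± 0.194 to 5.59 ± 0.424 FPKM. Ccl3, a chemokine, went from 0.955 ± 0.10 to 7.74 ± 0.665.

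Large falls were seen in a collagen, a BMP ligand and an acute phase protein. Col1a1, the alpha 1 chain of type I collagen, was at 68.2, 66.7 and 66.6 FPKM in NC and at 10.2, 10.1 and 10.2 in HL (HL minus NC -2.71, SE 0.03, adjusted p = 1.02e-07). Bmp4, a ligand of the TGF-beta superfamily, was at 14.5, 19.7 and 13.8 FPKM in NC and at 4.36, 1.41 and 2.61 in HL, with a wide spread in both groups (HL minus NC -2.59, SE 0.38, adjusted p = 0.00121). Hp, the hemoglobin-binding protein haptoglobin, fell from 24.2 ± 0.625 to 4.64 ± 0.571 FPKM, and Ptx3, a secreted pentraxin of innate immunity, from 33.3 ± 1.02 to 8.55 ± 0.160. Gm24044, Gm29331 and Gm10131, which carry no functional name, were at 9.32, 6.0 and 5.19 FPKM on average in NC. Gm24044 and Gm29331 were listed at 0 in all 3 HL libraries, so no fold is given, and Gm10131 lost its call without HL replicate 1, HL replicate 3 or NC replicate 3.

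Genes of the contractile apparatus were the muscle group with the most rises. Of 55 sarcomere genes, 29 were tested, and 18 of these rose and none fell, with a median log2 fold change of 1.35 against -0.05 over all tested genes. Since 6 of the 29 reached 1 FPKM in no NC library, the 21 members at 1 FPKM or more in all 6 libraries were also counted, and of those 12 rose and none fell (median 1.19). With a pseudocount of 1, 13 of the 29 rose. In bulk RNA of this kind, more cells of a differentiated type and more RNA per cell cannot be told apart. Acta1, the skeletal muscle actin of the thin filament, was at 4.84, 3.74 and 3.55 FPKM in NC and at 10.3, 10.6 and 11.5 in HL (HL minus NC 1.41, SE 0.12, adjusted p = 7.86e-05). The 3 HL values lay well above the 3 NC values. Ttn, the giant spring protein titin, was at 2.05, 2.22 and 2.03 FPKM in NC and at 6.62, 5.65 and 8.38 in HL, a wider spread than for Acta1 but again without overlap (HL minus NC 1.65, adjusted p = 8.95e-05). Pdlim3, a protein of the Z disc, rose from 19.9 ± 1.64 to 62.2 ± 2.75 FPKM and was the rising member of this list with the highest level. Xirp1 and Xirp2, actin-binding proteins of the intercalated disc and muscle attachment sites, had log2 fold changes of 1.82 and 2.06. Klhl41 and Trim54, which stabilise sarcomere proteins or bind microtubules in muscle, had log2 fold changes of 2.05 and 1.96. Myoz2, a calcineurin-binding protein of the Z disc, had the largest log2 fold change of the list, 2.95, from only 0.173 ± 0.0305 to 2.04 ± 0.465 FPKM. The fast troponins Tnnt3 and Tnni2 had log2 fold changes of 1.06 and 1.41, and the call of Tnnt3 was lost without HL replicate 2 (0.95), HL replicate 3 (0.98) or NC replicate 1 (0.98) and with a pseudocount of 1 (0.91). All these levels are low beside those of the cytoskeletal actin Actb, which was at 1530, 1500 and 1478 FPKM in NC and at 1477, 1549 and 1502 in HL.

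Some members of the same list did not reach the thresholds. Myl1, a fast myosin light chain, was at 6.70 ± 0.730 FPKM in NC and 10.6 ± 0.478 in HL (HL minus NC 0.67, adjusted p = 6.57e-04). Cryab, a chaperone of desmin and actin, was at 151 ± 7.64 and 286 ± 27.2 FPKM (HL minus NC 0.91, adjusted p = 4.55e-05), and passed after rescaling to TPM (1.01) and without the mitochondrial transcripts (1.06). Both genes had non-overlapping groups, as did 68.0% of all tested genes. The creatine kinase gene Ckm was below the filter.

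Genes that couple nerve input to contraction moved in the same direction where they were called. Of 30 genes of excitation-contraction coupling and muscle energy, 19 were tested, 5 rose and none fell, 3 of them from under 1 FPKM in every NC library. Chrnd, the delta subunit of the acetylcholine receptor, was at 28.5, 25.9 and 24.8 FPKM in NC and at 88.5, 86.9 and 88.0 in HL (HL minus NC 1.73, SE 0.05, adjusted p = 1.44e-06). Cacng1, a subunit of the muscle calcium channel, was at 14.2, 14.1 and 14.3 FPKM in NC and at 35.7, 39.0 and 37.3 in HL (HL minus NC 1.39, adjusted p = 1.66e-06). In both genes every HL library lay above every NC library, and 68.0% of all tested genes had no overlap in either direction. The ryanodine receptors Ryr1 and Ryr3, which release calcium from the sarcoplasmic reticulum, rose from 0.557 ± 0.127 to 1.48 ± 0.0620 and from 0.583 ± 0.0813 to 2.60 ± 0.308 FPKM.

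The factors that direct the program did not move as a block. Of 24 myogenic regulators, 20 were tested, 5 rose and 1 fell. Of the rises, 2 (Myog and Mef2c) came from under 1 FPKM in every NC library, and among the 17 members at 1 FPKM or more in all 6 libraries 2 rose and 1 fell. Myf5, an early myogenic factor, was at 6.78, 7.97 and 7.21 FPKM in NC and at 22.3, 18.7 and 21.8 in HL (HL minus NC 1.5, SE 0.09, adjusted p = 1.56e-05). Myog, which encodes myogenin, was at 0.736, 0.965 and 0.775 FPKM in NC and at 1.80, 2.17 and 1.97 in HL (HL minus NC 1.17, adjusted p = 9.58e-04). Myog thus rose but stayed at a low level, and its call was lost with a pseudocount of 1 (HL minus NC 0.71). Myod1 was at 18.1, 18.5 and 18 FPKM in NC and at 13.9, 12.7 and 12.8 in HL, lower in all 3 libraries but short of the threshold (HL minus NC -0.47, adjusted p = 2.45e-04). Mef2a and Mef2c, partners of the myogenic factors, had log2 fold changes of 1.01 and 1.36, and Msc, a bHLH factor of muscle precursors, had 1.94. The call of Mef2a was lost without HL replicate 1 (0.99) and with a pseudocount of 1 (0.98), and that of Mef2c with a pseudocount of 1 (0.81). Snai1, a repressor that occupies myogenic E-boxes in dividing myoblasts, fell from 33.0 ± 1.43 to 10.4 ± 0.665 FPKM (HL minus NC -1.66, adjusted p = 2.71e-06). Itga7, the laminin-binding integrin chain of muscle, rose from 83.0 ± 1.93 to 168 ± 5.91 FPKM.

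The ID protein genes Id1, Id2 and Id3 were lower. Of 29 genes of ID proteins and BMP signaling, 18 were tested, 5 fell and none rose. Id1 was at 50.7, 50.7 and 55.0 FPKM in NC and at 18.8, 18.8 and 21.5 in HL (HL minus NC -1.40, adjusted p = 6.21e-06). Id2 was at 32.9, 34.1 and 34.4 FPKM in NC and at 12.9, 11.3 and 12.4 in HL (HL minus NC -1.47, adjusted p = 3.17e-06). Id3 was at 94.3, 91.8 and 88.0 FPKM in NC and at 35.6, 32.9 and 37.8 in HL (HL minus NC -1.36, adjusted p = 3.48e-06). The ratio of the HL to the NC mean was between 0.361 (Id2) and 0.388 (Id3) in these genes. Smad6, an inhibitory SMAD that BMP signals induce, and Bmp4 were the other 2 members that fell, with log2 fold changes of -1.38 and -2.59.

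Some smooth muscle type actin-binding genes fell. Of 38 tested genes of this list and of SRF targets, 4 fell (10.5%, against 2.50% of all tested genes) and none rose. The median of 0.05 lay near that of all tested genes, and at an adjusted p alone 17 were above and 13 below NC. Tagln, the actin-binding protein transgelin, was at 151, 159 and 153 FPKM in NC and at 33.6, 34.0 and 37.1 in HL (HL minus NC -2.14, SE 0.05, adjusted p = 5.03e-07). Acta2 and Actg2, the smooth muscle actins, fell from 619 ± 8.73 to 295 ± 10.3 and from 75.6 ± 1.62 to 32.7 ± 0.292 FPKM. The call of Acta2 was lost after rescaling to TPM (HL minus NC -0.97) and without the mitochondrial transcripts (-0.92). Cnn1, calponin 1, fell from 7.18 ± 1.72 to 1.97 ± 0.464 FPKM. Adam12, a metalloprotease linked to myoblast fusion, fell from 7.45 ± 0.217 to 1.85 ± 0.253 FPKM.

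**Figure D2:**
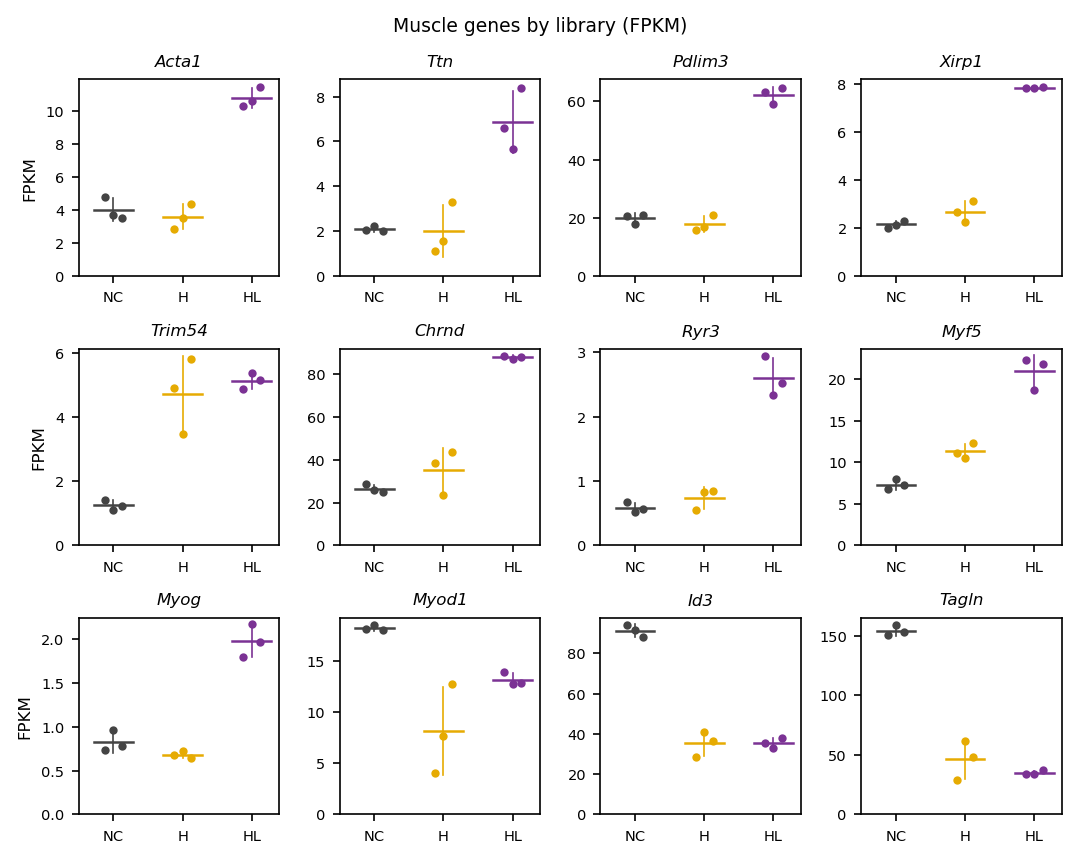
FPKM of 12 muscle genes in each of the 9 libraries (points; the line is the group mean and the bar ± 1 SD), with NC in grey, H in yellow and HL in purple, each panel on a linear axis from 0. Acta1, Ttn, Pdlim3 and Chrnd are higher in HL than in NC and H, while Id3 and Tagln are low in both H and HL, and Myod1 at 13.1 ± 0.680 in HL lies under its NC level of 18.2 ± 0.264.

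The promoters of these muscle genes are shown because the E-box is the site where myogenic bHLH factors bind, and because the genes moved together. The letters CAGCTG, which read the same on both strands, were searched in the 250 bases before the start of each gene in the RefSeq promoters of build GRCm38.p6. Of the 18 rising sarcomere genes, 13 had a promoter in that set and 7 of these held CAGCTG (53.8%), against 10 of 22 (45.5%) for the tested sarcomere genes with a promoter, called or not. None of the 4 promoters of rising myogenic regulators held it, and neither did the 2 of rising coupling genes, while 6 of 12 in the whole coupling list did. The share was 17.8% among all genes called higher, 16.4% among those called lower, 11.5% among the tested genes and 13% over all 32851 promoters. Such a match is a description of the letters and not of a bound site. The 3 rising genes with the largest change that hold the letters and Acta1 are printed 5′ to 3′ with CAGCTG in capitals, Myoz2 (chr3:123034988-123035237, minus strand), Klhl41 (chr2:69669870-69670119, plus strand), Trim54 (chr5:31116362-31116611, plus strand) and Acta1 (chr8:123894776-123895025, minus strand).
Myoz2: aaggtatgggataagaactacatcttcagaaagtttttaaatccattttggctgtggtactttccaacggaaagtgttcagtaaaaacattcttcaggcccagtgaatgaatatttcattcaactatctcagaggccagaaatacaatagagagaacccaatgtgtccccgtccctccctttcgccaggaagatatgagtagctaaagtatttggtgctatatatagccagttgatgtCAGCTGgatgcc
Klhl41: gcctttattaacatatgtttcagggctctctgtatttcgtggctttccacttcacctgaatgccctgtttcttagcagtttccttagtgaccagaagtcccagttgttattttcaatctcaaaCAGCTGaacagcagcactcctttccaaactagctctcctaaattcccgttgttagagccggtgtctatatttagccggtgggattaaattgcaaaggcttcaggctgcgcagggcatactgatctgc
Trim54: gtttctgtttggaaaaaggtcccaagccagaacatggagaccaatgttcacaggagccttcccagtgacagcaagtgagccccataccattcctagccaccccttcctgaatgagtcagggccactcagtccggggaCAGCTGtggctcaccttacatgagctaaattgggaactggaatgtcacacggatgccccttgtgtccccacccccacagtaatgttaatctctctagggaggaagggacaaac
Acta1: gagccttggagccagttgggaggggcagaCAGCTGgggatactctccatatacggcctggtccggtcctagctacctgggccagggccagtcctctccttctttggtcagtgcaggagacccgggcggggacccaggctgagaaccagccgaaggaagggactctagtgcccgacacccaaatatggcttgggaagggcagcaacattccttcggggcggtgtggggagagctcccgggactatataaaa
In Myoz2 the letters start 12 bases before the start, in Klhl41 127, in Trim54 113 and in Acta1 221. Xirp2 and Ttn, which also rose, had no CAGCTG in this window.

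Genes of DNA replication were lower throughout. All 66 genes of DNA replication and S phase were tested and at 1 FPKM or more in all 6 libraries, 21 fell, none rose, and the median log2 fold change was -0.87. At an adjusted p alone 64 of them were lower in HL and none was higher. After rescaling without the mitochondrial transcripts 16 fell, and the median was -0.73. The summed level of the list was 3607.4 to 3622.8 FPKM in NC and 1914.1 to 1924.2 in HL. Mcm5, a subunit of the replicative helicase, was at 74.0, 72.0 and 71.1 FPKM in NC and at 23.6, 22.5 and 22.7 in HL (HL minus NC -1.65, SE 0.04, adjusted p = 5.03e-07). Pclaf, a partner of the sliding clamp PCNA, was at 108, 106 and 109 FPKM in NC and at 38.1, 34.0 and 31.2 in HL (HL minus NC -1.65, adjusted p = 3.85e-06). Cdc6, which loads the helicase on origins, was at 20.1, 18.6 and 19.6 FPKM in NC and at 6.45, 5.93 and 6.49 in HL (HL minus NC -1.61, adjusted p = 2.67e-06). The ratio of the HL to the NC mean was close in these genes, from 0.317 in Mcm5 to 0.324 in Cdc6. Rrm2, a subunit of ribonucleotide reductase that supplies deoxynucleotides, fell from 262 ± 1.16 to 108 ± 4.27 FPKM, and Tk1, the thymidine kinase of S phase, from 122 ± 5.40 to 54.1 ± 5.11. Asf1b, a histone chaperone of replicating cells, and Pola1, the catalytic subunit of DNA polymerase alpha, had log2 fold changes of -1.51 and -1.28.

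Genes of mitosis were lower by less. All 92 were tested, 6 fell and none rose, with a median log2 fold change of -0.56, and at an adjusted p alone 86 were lower and 1 was higher. The kinetochore genes Cenpk and Spc24 and the spindle motor Kif15 had log2 fold changes of -1.38, -1.19 and -1.16. Mki67, the proliferation marker Ki-67, was at 59.8, 60.3 and 62.3 FPKM in NC and at 32.4, 34.3 and 31.3 in HL, HL minus NC of -0.90 (adjusted p = 7.03e-06). Top2a, the topoisomerase that untangles chromosomes, and Kif11, the motor that separates spindle poles, had log2 fold changes of -0.76 and -0.71. Plk1, the kinase of mitotic entry, was at 51.1, 49.8 and 47.4 FPKM in NC and at 39.5, 38.8 and 38.8 in HL (HL minus NC -0.34, adjusted p = 2.61e-04), and Cdc20, the activator of the anaphase-promoting complex, had -0.26. None of these 5 genes passed the fold threshold. Their groups did not overlap, which held for 68.0% of all tested genes. Ccnd1, the G1 cyclin D1, was at 133, 132 and 129 FPKM in NC and at 133, 139 and 134 in HL, HL minus NC of 0.04 (SE 0.03, adjusted p = 0.208). Of 39 genes of recombination repair and the Fanconi pathway, 4 fell and none rose (median -0.62), among them Rad54b, a motor protein of recombination, with -1.78, and Brca2, a mediator of recombination, with -1.16.

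Promoters of the replication genes are shown because E2F factors drive transcription of this group in G1 and S phase. The E2F site letters TTTGGCGC and TTTCCCGC were searched on both strands in the same windows. Of the 21 falling replication genes, 15 had a promoter and 4 of them held such letters (26.7%), against 9 of 54 (16.7%) for the whole replication list, and so did 2 of the 5 falling mitosis genes with a promoter (40.0%). The share was 8.0% among all genes called lower, 0.4% among those called higher (2 of 449), 2.7% among the tested genes and 1.3% over all promoters. The 4 replication genes are printed 5′ to 3′ with these letters in capitals, Mcm5 (chr8:75109259-75109508, plus strand), Cdc6 (chr11:98907901-98908150, plus strand), Pola1 (chrX:93632156-93632405, minus strand) and Mcm6 (chr1:128359706-128359955, minus strand).
Mcm5: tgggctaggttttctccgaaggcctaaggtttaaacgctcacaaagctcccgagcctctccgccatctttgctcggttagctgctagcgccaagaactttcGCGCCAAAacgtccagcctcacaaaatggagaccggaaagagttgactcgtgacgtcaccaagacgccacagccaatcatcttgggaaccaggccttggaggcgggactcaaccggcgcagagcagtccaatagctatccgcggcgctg
Cdc6: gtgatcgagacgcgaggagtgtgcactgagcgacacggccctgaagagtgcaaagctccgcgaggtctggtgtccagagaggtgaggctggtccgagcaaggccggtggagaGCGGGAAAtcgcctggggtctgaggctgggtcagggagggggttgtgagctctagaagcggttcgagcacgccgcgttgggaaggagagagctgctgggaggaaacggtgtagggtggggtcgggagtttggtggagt
Pola1: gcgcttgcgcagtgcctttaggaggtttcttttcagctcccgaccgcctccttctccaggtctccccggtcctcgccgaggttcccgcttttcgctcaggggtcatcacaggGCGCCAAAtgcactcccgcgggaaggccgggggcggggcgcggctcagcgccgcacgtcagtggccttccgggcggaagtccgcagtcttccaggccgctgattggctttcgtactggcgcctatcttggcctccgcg
Mcm6: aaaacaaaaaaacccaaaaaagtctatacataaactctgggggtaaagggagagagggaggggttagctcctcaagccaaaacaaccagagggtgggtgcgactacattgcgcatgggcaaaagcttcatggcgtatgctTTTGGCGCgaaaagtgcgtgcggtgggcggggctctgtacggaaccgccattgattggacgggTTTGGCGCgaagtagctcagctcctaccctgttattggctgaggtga
The letters lie 149 bases before the start in Mcm5 and 138 in both Cdc6 and Pola1. Mcm6, whose log2 fold change was -1.17, holds them at 110 and at 47 bases.

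Inhibitors of the cell cycle and p53 targets were higher in part. Of 45 genes of this list, 41 were tested, 9 rose and none fell, with a median log2 fold change of 0.23. Cdkn1a, the CDK inhibitor p21, was at 131, 128 and 127 FPKM in NC and at 293, 302 and 290 in HL (HL minus NC 1.2, SE 0.03, adjusted p = 5.03e-07). Btg2, an antiproliferative gene that binds the deadenylase complex, was at 12, 11.8 and 12.4 FPKM in NC and at 62.3, 62.5 and 64.2 in HL (HL minus NC 2.37, adjusted p = 1.80e-07). Trp53inp1, Plk2 and Gadd45a, all stress-induced, had log2 fold changes of 2.0, 1.72 and 1.34. Of the BCL2 family, 17 genes were tested, 3 rose and 1 fell, against 5.91% and 2.50% of all tested genes. The median of that list was 0.01, and 6 were above and 5 below NC at an adjusted p alone. The rising members were the proapoptotic BH3-only genes Bcl2l11 (7.33 ± 0.178 to 28.3 ± 2.59 FPKM), Bbc3 (3.61 ± 0.221 to 11.1 ± 1.54) and Pmaip1 (HL minus NC 1.2), and the falling member was Bok, also proapoptotic (HL minus NC -1.35).

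Histone genes went the opposite way to the replication genes. Of 64 replication-dependent histone genes, 34 were tested, 21 rose and 2 fell. Of the 34, 11 reached 1 FPKM in no NC library, and all 11 are among those that rose, so that the filter sets part of this count. The 7 histone genes at 1 FPKM or more in all 6 libraries gave 5 rises and no fall. The summed level of the list was 65.3 to 71.1 FPKM in NC and 401.3 to 435.0 in HL. Hist1h4i was at 3.31, 2.67 and 2.51 FPKM in NC and at 27.8, 26.5 and 24.4 in HL (HL minus NC 3.18, adjusted p = 2.18e-06). Hist1h2bc, a core histone H2B gene, was at 7.49, 8.10 and 7.99 FPKM in NC and at 30.6, 31.2 and 31.9 in HL (HL minus NC 1.98, adjusted p = 6.71e-07). Hist3h2a, an H2A gene, rose from 1.95 ± 0.105 to 10.7 ± 0.853 FPKM. Hist1h1c alone made up a large part of the sum, at 229 ± 10.4 FPKM in HL. Hist1h2ag and Hist1h2bk were called lower, with log2 fold changes of -1.51 and -1.33. The groups of Hist1h2bk overlapped, and its call was lost without HL replicate 1 (-0.95), HL replicate 3, NC replicate 1 or NC replicate 2. With all 6 libraries it was also lost with a pseudocount of 1 (-0.97), with no filter on low values and with limma without trend. The call of Hist1h2ag was lost with a pseudocount of 1 (-0.98) and in the fit of all 9 libraries. Many histone genes are near-identical copies, so reads may be split between them and single values are uncertain. The libraries were made from mRNA enriched before sequencing, and poly(A) tails of histone mRNA were not measured here.

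**Figure D3:**
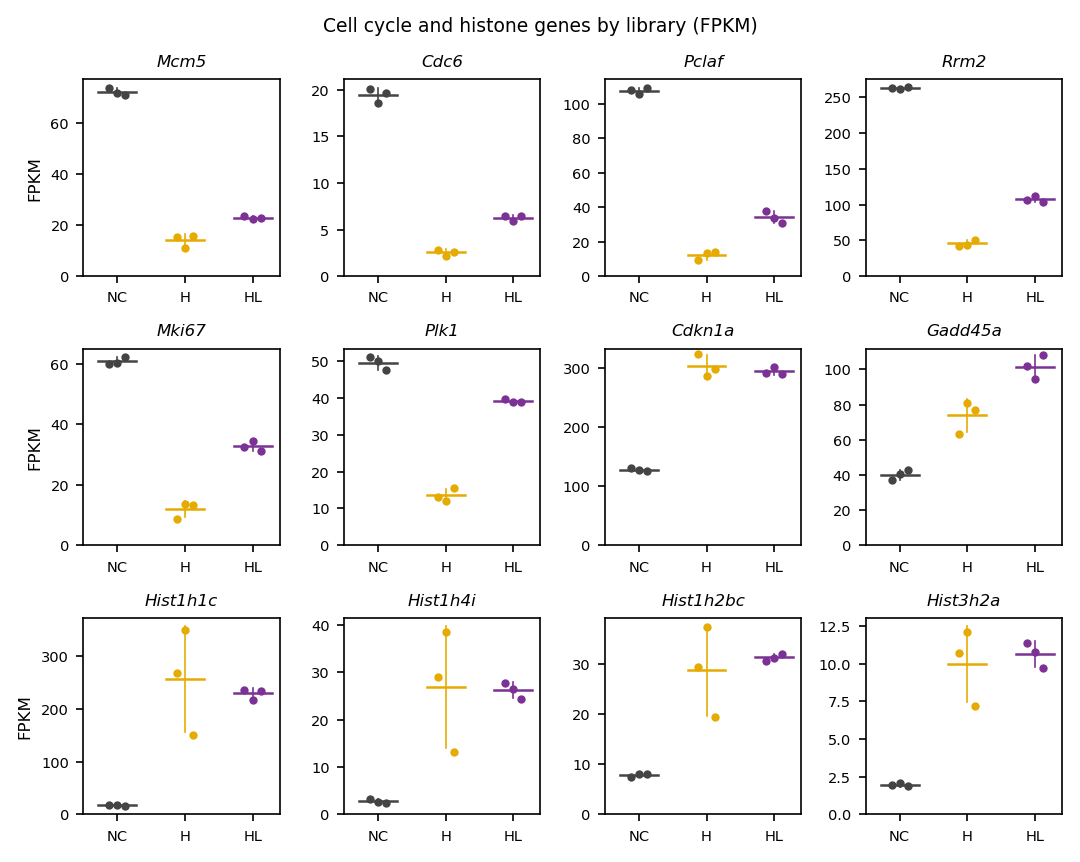
FPKM of 12 cell cycle and histone genes in each of the 9 libraries (points; line, group mean; bar, ± 1 SD; NC grey, H yellow, HL purple; linear axes from 0). In HL the 4 replication genes in the top row lie under their NC levels and the 4 histone genes in the bottom row above them, with Mcm5 at 22.9 ± 0.573 against 72.4 ± 1.52 and Hist1h1c at 229 ± 10.4 against 17.4 ± 0.815.

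Part of the immediate early genes, which growth factors and stress switch on within minutes without new protein synthesis, were higher after 48 h. Of 32 genes, 30 were tested, all at 1 FPKM or more in the 6 libraries, 11 rose and 1 fell, with a median log2 fold change of 0.67. Fos was at 8.39, 9.41 and 8.10 FPKM in NC and at 85.6, 96.9 and 99.3 in HL (HL minus NC 3.43, SE 0.08, adjusted p = 5.03e-07). Atf3, a stress-induced repressor of the ATF family, was at 9.15, 9.06 and 9.49 FPKM in NC and at 64.7, 64.1 and 59.0 in HL (HL minus NC 2.75, adjusted p = 2.14e-07). Fosb, also an AP-1 subunit, was at 3.62, 3.26 and 3.13 FPKM in NC and at 21.2, 20.1 and 22 in HL (HL minus NC 2.63, adjusted p = 1.14e-06). In all 3 the lowest HL library exceeded the highest NC library several-fold. The zinc finger factors Klf2 and Egr2 and the mRNA-decay factor Zfp36 had log2 fold changes of 2.23, 1.91 and 2.14. Nr4a2, an orphan nuclear receptor, was the member that fell, from 47.3 ± 5.39 to 17.3 ± 2.14 FPKM. Dusp1 and Dusp4, phosphatases that switch MAP kinases off, rose from 67.1 ± 1.41 to 195 ± 4.33 FPKM and by 1.82 on the log2 scale. Nfkbia, the NF-kB inhibitor that NF-kB itself induces, was at 37.9, 37.5 and 37.6 FPKM in NC and at 167, 163 and 168 in HL (HL minus NC 2.14, adjusted p = 1.02e-07). Tnfaip3, the NF-kB feedback enzyme A20, had 1.66. Of 33 tested genes of the NF-kB pathway and Toll-like receptors, 3 rose (9.1%, against 5.91% of all tested genes) and none fell. The median of that list was 0.06, and 13 were above and 8 below NC at an adjusted p alone.

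The drug's receptor works through cyclic AMP, so the cAMP response element (CRE), TGACGTCA, was searched in the same promoters. Of genes called higher, 2.7% held it (12 of 449), and of genes called lower 3.3%, against 2.9% of the tested genes and 1.5% of all promoters. Among the rising immediate early genes it was 2 of the 10 with a promoter (20%). Btg2 (chr1:134079156-134079405, minus strand) and Dusp1 (chr17:26508473-26508722, minus strand) are shown, with the CRE in capitals, as 2 rising genes of the immediate early list that do.
Btg2: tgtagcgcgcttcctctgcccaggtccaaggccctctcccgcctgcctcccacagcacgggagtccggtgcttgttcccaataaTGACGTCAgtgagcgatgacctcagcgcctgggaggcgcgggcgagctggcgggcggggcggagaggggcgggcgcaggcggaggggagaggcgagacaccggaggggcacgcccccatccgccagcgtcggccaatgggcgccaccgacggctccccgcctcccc
Dusp1: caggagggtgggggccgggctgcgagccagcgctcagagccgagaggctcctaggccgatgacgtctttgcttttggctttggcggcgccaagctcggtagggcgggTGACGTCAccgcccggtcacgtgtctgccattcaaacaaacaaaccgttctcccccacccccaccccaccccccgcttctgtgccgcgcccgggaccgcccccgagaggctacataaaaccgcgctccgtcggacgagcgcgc
The CRE starts 166 bases before the start in Btg2 and 143 in Dusp1. No other promoter found for a rising immediate early gene held the 8 letters in this window. The AP-1 site TGACTCA, which dimers of FOS and JUN proteins bind, was found on either strand in 6.9% of the genes called higher, 2.3% of those called lower, 3.2% of the tested genes and 4.5% of all promoters.

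The receptor itself was at the edge of detection. Glp1r was at 0.0685, 0.0685 and 0.119 FPKM in NC and at 0.124, 0.117 and 0.187 in HL, below the filter. Of 48 genes of the GLP-1 receptor and cAMP signaling, 34 were tested, 1 rose and 2 fell, against 5.91% and 2.50% of all tested genes. Among the 31 members at 1 FPKM or more in all 6 libraries 1 rose and none fell in the limma test. Pde8a, a phosphodiesterase that breaks down cAMP, rose from 4.22 to 9.07 FPKM on average, Adcy3, an adenylate cyclase, fell from 2.0 to 0.856, and Pde3a, also a phosphodiesterase, from 1.07 to 0.451. Pde3a reached 1 FPKM in no HL library, and the calls of Pde8a (0.95), Adcy3 (-0.73) and Pde3a (-0.51) were lost with a pseudocount of 1. The call of Adcy3 was lost without HL replicate 2, HL replicate 3, NC replicate 1 or NC replicate 3 and without the filter on low values. In the insulin pathway, 2 of 23 tested genes rose (8.7%, against 5.91% of all tested genes), the receptor substrates Irs1 and Irs2. Irs1 was at 10.4, 10.9 and 10.9 FPKM in NC and 47.4, 45.0 and 48.4 in HL (HL minus NC 2.12, adjusted p = 5.03e-07), and Irs2 had 1.18 (adjusted p = 1.17e-05).

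Genes of proteins that were blotted in the study are given by name. Prkaa1, the alpha 1 catalytic subunit of AMPK, was at 41.1, 41.8 and 41.9 FPKM in NC and at 38, 36.2 and 38.9 in HL (HL minus NC -0.14, SE 0.04, adjusted p = 0.0148), and its log2 fold change was 0.00 after rescaling without the mitochondrial transcripts. Prkaa2, the alpha 2 subunit, was at 1.0 ± 0.0174 and 1.68 ± 0.142 FPKM (HL minus NC 0.69). Of 23 tested genes of AMPK and its upstream kinases none rose or fell at the limma thresholds, while 5 were above and 6 below NC at an adjusted p alone. Fbxo32, the ubiquitin ligase MAFbx of muscle atrophy, was at 7.2, 7.0 and 7.62 FPKM in NC and at 18.8, 20.2 and 18.5 in HL (HL minus NC 1.39, SE 0.06, adjusted p = 4.14e-06). Trim63, the ligase MuRF1, was below the filter at 0.120, 0.149 and 0.0880 FPKM in NC and 0.825, 1.12 and 0.915 in HL. The HL values of both ligase genes lay above all their NC values, and 68.0% of all tested genes had no overlap in either direction. These are transcript levels, and protein was not analysed here.

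Few genes of osmotic stress were called. Of 41 genes of NFAT5 and osmolyte handling, 34 were tested, all at 1 FPKM or more in the 6 libraries, 2 rose and none fell, 5.9% of them against 5.91% of all tested genes. Akr1b3, the aldose reductase that makes sorbitol, was at 213, 210 and 206 FPKM in NC and at 203, 212 and 201 in HL (HL minus NC -0.03, SE 0.03, adjusted p = 0.390), and the groups overlapped. In the H libraries it was at 6845, 4041 and 4858 FPKM. Atp1b1, a sodium pump subunit, rose from 3.45 ± 0.393 to 14 ± 0.527 FPKM, and Slc2a1, the glucose transporter GLUT1, from 78.0 ± 0.284 to 157 ± 4.37. The call of Slc2a1 was lost without HL replicate 1 (HL minus NC 0.99).

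**Figure D4:**
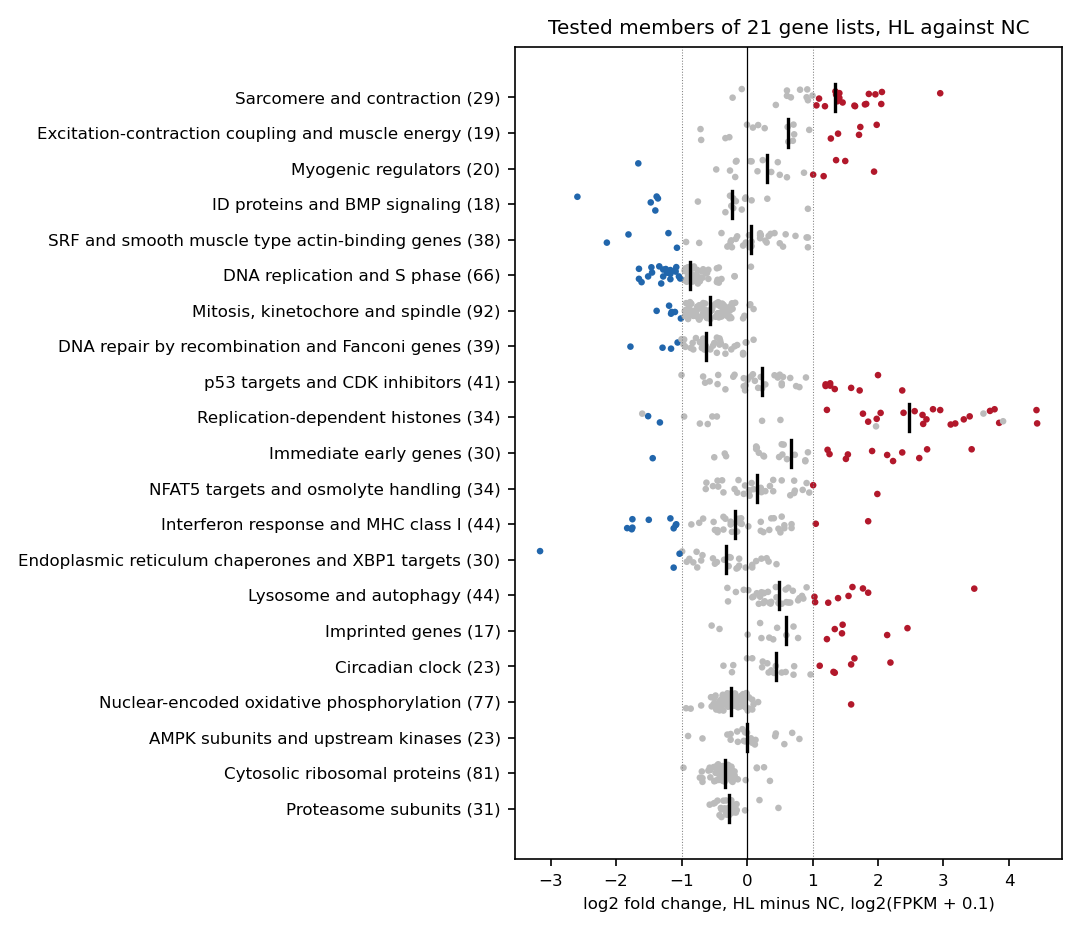
Log2 fold changes, HL minus NC, of the tested members of 21 gene lists, with 1 point per gene (red, called higher; blue, called lower; grey, not called), the number tested in parentheses and a black line at the list's median. Dotted lines mark the fold threshold of 1, and the sarcomere list lies mostly above 0 with a median of 1.35 while the DNA replication list lies below with -0.87.

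Genes of the extracellular matrix moved in both directions. Of 52 matrix glycoproteins and proteoglycans, 34 were tested, 5 rose and 5 fell. Fn1, fibronectin, was at 780, 795 and 794 FPKM in NC and at 1920, 1923 and 1894 in HL (HL minus NC 1.28, SE 0.02, adjusted p = 2.04e-07), the highest level of the genes called higher in that list. Thbs2, a thrombospondin, rose from 49.1 ± 0.711 to 110 ± 1.85 FPKM. Has2, the main hyaluronan synthase, Mfap5, a microfibril protein, and Fbln5, which organises elastic fibres, had log2 fold changes of -1.28, -1.39 and -1.09, of which the call of Fbln5 was lost after rescaling to TPM (-0.99) and without the mitochondrial transcripts (-0.94). Of 20 tested collagen chains 3 rose and 1 fell, Col18a1, a basement membrane collagen, from 55.6 ± 1.47 to 117 ± 1.19 FPKM and Col1a1 in the other direction. Of the 29 tested matrix proteases and inhibitors, 3 rose and 5 fell. Timp1, an inhibitor of metalloproteases, was at 942, 907 and 924 FPKM in NC and at 248, 295 and 284 in HL (HL minus NC -1.75, SE 0.06, adjusted p = 2.37e-06). Plau, the urokinase that activates plasminogen, rose from 58.8 ± 1.64 to 135 ± 3.59 FPKM, while its inhibitor Serpinb2 fell from 27.6 ± 0.586 to 8.51 ± 0.388.

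Lysosomal genes were higher as a group. Of 48 genes of lysosomes and autophagy, 44 were tested, all at 1 FPKM or more in the 6 libraries, 9 rose and none fell, and 36 were above and 3 below NC at an adjusted p alone. The median log2 fold change was 0.49, and the summed level went from 3805.3 to 3870.8 FPKM in NC to 6228.1 to 6255.2 in HL. Ctsd, the protease cathepsin D, was at 297, 298 and 298 FPKM in NC and at 620, 601 and 608 in HL (HL minus NC 1.03, SE 0.02, adjusted p = 5.03e-07). Sqstm1, the autophagy receptor p62, was at 342, 335 and 327 FPKM in NC and at 693, 677 and 694 in HL (HL minus NC 1.04, adjusted p = 7.93e-07). Ctsh, a cathepsin, Rragd, a GTPase that signals nutrients to mTORC1, and Tecpr1, which acts on damaged lysosomes, had log2 fold changes of 1.77, 1.85 and 1.61.

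Genes of protein synthesis, folding and turnover lay slightly below control. None of the 81 cytosolic ribosomal protein genes passed the limma thresholds in either direction, and 76 were below and 3 above NC at an adjusted p alone (61 and 3 without the mitochondrial transcripts), with a median of -0.34. Of 31 proteasome subunits none was called, and 28 were below and 2 above NC at an adjusted p alone (median -0.28, against -0.05 over all tested genes). The FPKM total was also lower in HL, at 698627 to 731929 against 757000 to 765681 in NC. Small shifts of this kind can move with the scaling, and rescaled counts of the proteasome list are not given. Of 30 chaperones of the endoplasmic reticulum, 3 fell and none rose, and among the 29 at 1 FPKM or more in all 6 libraries 2 fell. Derl3, which helps to remove misfolded proteins and passed the filter through NC alone, fell from 2.18, 2.04 and 2.56 FPKM in NC to 0.274, 0.390 and 0 in HL (HL minus NC -3.16, SE 0.58, adjusted p = 0.00288). Creld2, an isomerase of that compartment, fell from 97.2 ± 3.18 to 44.7 ± 0.821 FPKM, a call lost without the mitochondrial transcripts (HL minus NC -0.97). Among 77 tested nuclear genes of oxidative phosphorylation, Cox7a1, the muscle form of a cytochrome oxidase subunit, was the only call, from 4.02 ± 0.547 to 12.3 ± 1.2 FPKM, and 57 were below and 3 above NC at an adjusted p alone (37 and 14 without the mitochondrial transcripts). Of the 15 mitochondrially encoded transcripts 1 was called, the 12S rRNA mt-Rnr1, at 285, 274 and 277 FPKM in NC and 134, 119 and 133 in HL (HL minus NC -1.12, adjusted p = 5.14e-06). Its call was lost without the mitochondrial transcripts in the scaling (-0.97) and in the fit of all 9 libraries. Ppargc1a, the coactivator PGC-1 alpha, rose from 0.197 ± 0.0190 to 1.65 ± 0.132 FPKM, a low level in both groups.

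Interferon-induced genes were mostly lower where called. Of 44 tested genes of the interferon response and MHC class I, 9 fell and 2 rose, and 5 of those that fell reached 1 FPKM in no HL library. Among the 39 at 1 FPKM or more in all 6 libraries 4 fell and 2 rose (median -0.12). At an adjusted p alone 18 of the 44 were below and 14 above NC. The summed level of the list was higher in HL, at 2566.4 to 2598.2 FPKM against 2362.8 to 2406.5 in NC. Isg15, a ubiquitin-like modifier, was at 13.4, 16 and 15 FPKM in NC and at 6.44, 5.81 and 8.17 in HL (HL minus NC -1.12, adjusted p = 3.26e-04). Bst2, the tether that holds enveloped virus on the cell, fell from 20.7 ± 0.670 to 9.78 ± 1.04 FPKM. Without the mitochondrial transcripts the calls of Isg15 (-0.97) and Bst2 (-0.94) were lost, and that of Bst2 also after rescaling to TPM (-0.99). The guanylate-binding proteins Gbp2, Gbp3 and Gbp7 had log2 fold changes of -1.76, -1.75 and -1.83, and as close paralogs they may share reads. Nlrc5, the activator of MHC class I genes, rose from 1.54 ± 0.519 to 5.68 ± 0.903 FPKM. Of 27 tested chemokines and cytokines, 6 rose and 3 fell, among them Ccl5, from 62.5 ± 2.84 to 25.3 ± 6.48 FPKM, and Il1rn, the antagonist of interleukin-1, from 74.2 ± 16.5 to 27.4 ± 3.74. Cxcr4, a chemokine receptor of muscle precursors, rose from 2.83 ± 0.565 to 9.40 ± 0.678 FPKM. Ccl2, which attracts monocytes, was at 142 ± 4.58 and 234 ± 15.6 FPKM (HL minus NC 0.72, adjusted p = 3.15e-05).

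**Figure D5:**
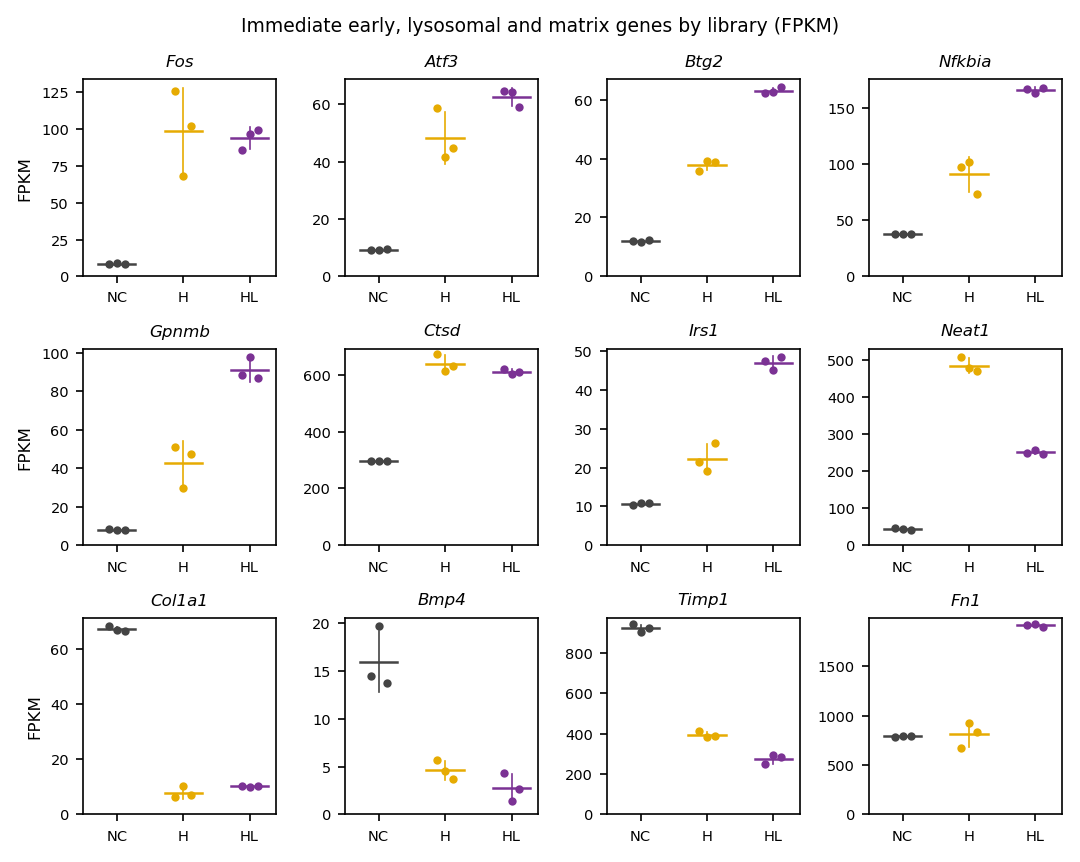
FPKM of 12 immediate early, lysosomal, insulin pathway and matrix genes in each of the 9 libraries (points; line, group mean; bar, ± 1 SD; NC grey, H yellow, HL purple; linear axes from 0). Fos, Atf3, Btg2 and Nfkbia in the top row are higher in HL than in NC, as are Gpnmb, Ctsd, Irs1 and Neat1, while Col1a1, Bmp4 and Timp1 are lower, Timp1 at 276 ± 24.4 against 924 ± 17.5.

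The levels in the H libraries place these values. The comparisons share libraries, so only values and the HL against H test, from a limma fit of all 9 libraries, are given. Fos was at 126, 68.5 and 102 FPKM in H, and HL differed from H by -0.04 on the log2 scale (adjusted p = 0.889). Hist1h1c was at 267, 349 and 150 FPKM in H (HL minus H -0.07, adjusted p = 0.824), and Cdkn1a at 324, 288 and 299 (-0.04, adjusted p = 0.547). For these 3 genes no difference between HL and H was detected, and the H libraries of Fos and Hist1h1c spread widely. Peg3, an imprinted zinc finger gene of muscle stem cells, was at 19.6, 19.4 and 20.9 FPKM in NC, 14.1, 17.7 and 22.1 in H and 55.2, 56.1 and 54.3 in HL (HL minus H 1.64, adjusted p = 2.14e-05; HL minus NC 1.46, adjusted p = 1.19e-06). Fn1 was at 675, 924 and 832 FPKM in H and differed from HL by 1.25 (adjusted p = 1.36e-05). Id2 was at 34.2, 37.2 and 40.4 FPKM in H (HL minus H -1.60, adjusted p = 1.96e-06), so that HL was lower than both other groups. Mcm5 was at 15.3, 11.2 and 16 FPKM in H, below its HL level (HL minus H 0.71, adjusted p = 0.00109), and Rrm2 at 42.9, 44.3 and 50.8 (1.23, adjusted p = 2.88e-06). Neat1, the RNA scaffold of paraspeckles, was at 45.8, 43.7 and 42.5 FPKM in NC, 509, 479 and 471 in H and 251, 257 and 247 in HL, and HL differed from both (HL minus NC 2.52, adjusted p = 1.34e-07; HL minus H -0.95, adjusted p = 2.75e-06).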

How the data were processed

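RNA of C2C12 cells was sequenced in 9 libraries, and the 6 of the HL and NC groups were compared, grouped by their labels. The authors deposited FPKM values per gene. Per the submitters' processing notes, HISAT2 2.1.0 and StringTie 1.3.3b were used with mouse build mm39, while the study's methods name a human genome. The gene IDs are mouse Ensembl IDs. The name under which the values were deposited mentions another quantification program, Salmon, so which program gave them is uncertain. No counts were used, and depth was read from the step size of the lowest FPKM values, and no counting intervals are given. Of the 54307 genes, 51482 were matched to a symbol. Gene coordinates are not given, since the reference is of another build than the files, and the promoter coordinates printed are those of the reference.

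Values were tested as log2(FPKM + 0.1) with limma 3.58.1 (R 4.3.3, trend and robust empirical Bayes), in genes at 1 FPKM or more in at least 3 of the 6 libraries, with Benjamini-Hochberg adjustment over all 12896. The H group was left out of this fit because its libraries spread more widely. The fit was tested on simulated data, in which 46 of 50 genes changed by 1.2 on the log2 scale were called. The changed genes were drawn from those with a mean log2 level over 1 in NC, with spreads shuffled between genes. Changes in genes at lower NC levels were thus not covered. Other pseudocounts, filters, scalings and fits, a replicate block and the omission of each library were tried. The members and gene lists were chosen with earlier results of these data known, so list counts are descriptions. Genes were named as the 15 with the largest change in each direction (mean of at least 5 FPKM in the higher group, no overlap between groups), as up to 5 called members a list with the largest change, as the 2 highest members of lists with under 2 calls, and as genes of the study's own lists and a set of muscle, cycle and metabolic genes. Bhlhe41, Bst2, Cryab, Ctsd, Des, Egr2, Fbln5, Hist1h2ag, Hist1h2bc, Hist1h2bk, Hist3h2a, Isg15, Mcm6, Mef2a, Myl1, Nr4a2, Tnni2, Tnnt3, Ttn, Xirp1 and Zfp36 fell outside that rule and were named after their values were seen. Promoters are RefSeq sequences of GRCm38.p6, matched by symbol for 9425 tested genes. Their letters were searched with Python 3.11.15, and promoters of 250 bases before the start were used. Of the 7 motifs searched, the CCAAT box, MEF2 site and CArG box are not shown, and the promoters printed were picked after their letters were seen. Some items are not reported here.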

Additional observations from a re-analysis of the deposited data

How the results depend on the processing

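No gene called higher or lower had the opposite call in any of the alternatives run. The 762 genes higher and 323 lower became 443 and 198 with a pseudocount of 1, 1299 and 636 without a filter on low values, 281 and 159 with a mean of at least 5 FPKM, and 3467 and 4508 at an adjusted p alone, where 43.5% were higher. Rescaling to TPM gave 1031 and 297, and rescaling without mitochondrial transcripts 1002 and 221. With each library left out in turn, 741 to 781 genes were higher and 296 to 331 lower. A fit with the replicate number as a block gave 759 higher and 325 lower and shared 1068 of the 1085 calls. The labels do not say that equal numbers mark a shared culture, and deviations of equally numbered libraries correlated by 0.023, 0.026 and 0.053, so the numbers were not taken as pairs, although each library correlated best with its own number.

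Genes near 0 changed sign. Rescaling to TPM turned Akr1b3 to 0.06 on the log2 scale, and rescaling without mitochondrial transcripts turned it to 0.12 and brought Prkaa1 to 0.00. Actb ranged from -0.01 to 0.02 with 1 library left out. The cause was not tested beyond the scaling itself. For a transcript of 0.6 kb, 1 FPKM stands for about 6.0 to 7.5 fragments in HL, so short genes near 1 FPKM rest on few fragments. Calls among genes near 1 FPKM, such as Myog (0.71 with a pseudocount of 1), depend on the pseudocount.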

Other observations

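Clock genes were higher in part. Of 23 genes of the circadian clock, all tested, 6 rose and none fell, 3 of them from under 1 FPKM in every NC library. Nr1d1, the repressor REV-ERB alpha, had a log2 fold change of 1.64, Npas2, a partner of BMAL1, 1.59, and Bhlhe40 and Bhlhe41, repressors of the clock, 1.32 and 1.11. The hour of harvest of each group is not given in the sources used here. Of 17 tested imprinted genes 6 rose and none fell, and among the 13 at 1 FPKM or more in all 6 libraries 3 rose. Plagl1, a zinc finger factor of an imprinted growth network that reached 1 FPKM in no NC library, had 1.45, a call lost with a pseudocount of 1 (0.79).

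Of 42 tested genes of ephrins, semaphorins and axon guidance 6 rose and 1 fell, against 5.91% and 2.50% of all tested genes, and among the 39 at 1 FPKM or more in all 6 libraries 5 rose and none fell in the limma test. The secreted semaphorins Sema3d and Sema3c had log2 fold changes of 1.55 and 1.54, and the netrin receptor Unc5c, which reached 1 FPKM in no HL library, had -1.41. Of 27 tested Wnt genes 11.1% were called, against 8.41% of all tested genes. The ligands Wnt7b and Wnt10b rose, with 1.38 and 1.14, and Wnt10a fell, with -1.73. Of 20 tested Notch genes 3 rose and none fell, against 5.91% and 2.50% of all tested genes. The median of that list was 0.20, and 9 were above and 4 below NC at an adjusted p alone. Hes1, a repressor that Notch induces, was among the 3 that rose, with 1.13, and the part of Notch in its rise was not tested. Of 18 neural and Schwann cell markers, 9 were tested and 4 rose, and the summed level of the list was 103.5 to 105.6 FPKM in NC and at least 184.0 in HL. Ngfr, the neurotrophin receptor p75, had 1.27. The part of other cell types in these results was not tested.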
